A study of Homo sapiens with 12 samples.

Results

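The integrated stress response and the unfolded protein response were described through 32 genes in MCF10AT cells. This line came from human MCF10A breast epithelium and carries an activated Ras. The genes were listed by name as known members of these programmes, 19 of the integrated stress response and 13 of the unfolded protein response, and TRIB3 and ATF3 were left out of the list. All 32 were found among 62702 genes with values, and all 32 were among the 17677 genes that had enough counts to be tested. All cells carried both the long and the intermediate human prolactin receptor (hPRLrL/hPRLrI), and 1 set had an intermediate receptor without its I-tail. There were 4 groups of 3 biological replicates: deleted I-tail with prolactin (PRL), deleted I-tail untreated, intact I-tail with PRL, and intact I-tail untreated. All groups were without serum for 24 h, and the PRL groups then received 250 ng/ml for 2 h. The labels do not say what drives the receptors or whether the cells are clones or pools.

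In the integrated stress response, kinases that sense amino acid shortage, unfolded protein, viral RNA or heme shortage phosphorylate the translation factor eIF2. General translation then slows while the messenger of the transcription factor ATF4 is translated more, so that ATF4 protein can change without its RNA. ATF4 switches on amino acid transporters, amino acid and one-carbon enzymes, and further transcription factors such as DDIT3 (CHOP). The unfolded protein response is sensed in the endoplasmic reticulum by ERN1 (IRE1), EIF2AK3 (PERK) and ATF6, and raises chaperones, protein disulfide isomerases and factors that clear misfolded proteins. ERN1 works by splicing the XBP1 messenger, a change that counts per gene do not show. Secretory breast epithelium, a target of prolactin, depends on this folding machinery.

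The DNA elements of both programmes were looked for on both strands in the RefSeq promoter windows (GRCh38.p14, 250 bases before to 50 bases after the start of the gene), which covered 29 of the 32 genes. The 3 without a window were NUPR1, SHMT2 and SLC7A11. The element bound by ATF4 and its C/EBP partners, searched as TGATGNAA, was in 5 of 29 windows (17.2%), against 3.62% of 35116 promoters. Of those 5, 4 belonged to the 16 integrated stress response genes with a window and 1, HERPUD1, to the 13 unfolded protein response genes. The endoplasmic reticulum stress element, searched as CCAAT, 9 free bases and CCACG, was in 4 of 29 windows (13.8%), all 4 among the unfolded protein response genes, against 0.0769% of all promoters. The prolactin-activated factor STAT5 binds TTCNNNGAA, which was in 1 of 29 windows (3.45%, SLC3A2), against 7.66% of all promoters. A match describes the letters in the window and is no evidence of binding.

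The promoters of the genes on which the PRL results turn are shown first, 5′ to 3′, with the ATF4 element in capitals. For DDIT4 and DDIT3 they end at the base before the start, and for SLC7A1 at base 20 of the gene.
DDIT4, chr10:72273674-72273923, plus strand: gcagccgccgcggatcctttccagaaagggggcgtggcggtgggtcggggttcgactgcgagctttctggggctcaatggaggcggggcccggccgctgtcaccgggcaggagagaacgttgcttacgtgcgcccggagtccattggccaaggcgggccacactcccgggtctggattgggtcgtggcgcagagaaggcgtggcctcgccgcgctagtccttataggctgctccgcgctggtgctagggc
SLC7A1, chr13:29595669-29595938, minus strand: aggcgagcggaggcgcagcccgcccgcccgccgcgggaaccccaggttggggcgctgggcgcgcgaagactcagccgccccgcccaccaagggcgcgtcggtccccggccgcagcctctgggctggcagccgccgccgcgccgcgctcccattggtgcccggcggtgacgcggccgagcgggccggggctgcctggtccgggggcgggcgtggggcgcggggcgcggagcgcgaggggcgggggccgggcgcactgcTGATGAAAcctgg
DDIT3, chr12:57520515-57520764, minus strand: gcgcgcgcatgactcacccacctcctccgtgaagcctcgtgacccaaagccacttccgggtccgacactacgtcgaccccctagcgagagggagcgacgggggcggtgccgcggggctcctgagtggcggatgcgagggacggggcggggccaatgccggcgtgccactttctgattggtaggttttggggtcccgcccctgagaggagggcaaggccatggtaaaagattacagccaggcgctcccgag
Of these 3 windows, that of SLC7A1 held the ATF4 element, at bases 8 to 15 of the gene. The other genes with that element are shown as short stretches, and on 3 of them the capitals are the element read on the opposite strand.
ASNS, chr7:97872459-97872486, minus strand: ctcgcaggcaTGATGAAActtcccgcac
CHAC1, chr15:40953252-40953279, plus strand: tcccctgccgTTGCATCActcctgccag
SLC3A2, chr11:62881726-62881748, plus strand: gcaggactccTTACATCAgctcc
HERPUD1, chr16:56931956-56931983, plus strand: acgcggcgggTTGCATCAgcccgtgccc
The endoplasmic reticulum stress element is shown in capitals for the 4 genes that carried it, since these are the abundant chaperones and the transcription factor of that response.
HSPA5, chr9:125241381-125241419, minus strand: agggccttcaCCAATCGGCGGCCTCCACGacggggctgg
HSP90B1, chr12:103930206-103930244, plus strand: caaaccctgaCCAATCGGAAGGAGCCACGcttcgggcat
HSP90B1, chr12:103930311-103930349, plus strand: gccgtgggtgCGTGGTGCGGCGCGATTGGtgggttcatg
CALR, chr19:12938374-12938412, plus strand: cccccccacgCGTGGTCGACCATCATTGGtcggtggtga
XBP1, chr22:28800593-28800631, minus strand: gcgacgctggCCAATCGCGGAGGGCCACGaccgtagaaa
HSP90B1 carried the element in both orientations, and in CALR it ran on the opposite strand. None of the 4 genes that carry it passed the test for PRL or for the deletion in either edgeR fit described below.

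Levels were compared between genes per kilobase of exon, in CPM (counts scaled by library size and the TMM factor). CALR, a calcium-binding chaperone of the endoplasmic reticulum, was the most abundant at 551.8 CPM per kilobase (range over 12 libraries 485.6 to 692.7). DDIT4 (REDD1), an inhibitor of the growth kinase complex mTORC1, followed at 370.8 (263.8 to 458), and its range did not reach that of CALR. SLC7A5, the transporter of large neutral amino acids, stood at 192.4 (92.6 to 347), and ATF4 at 188.9 (157.6 to 221.8), so that these ranges overlapped. HSPA5 (BiP), the main chaperone of the compartment, stood at 104.3 and the disulfide isomerase PDIA4 at 81.3 CPM per kilobase.

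At the other end of the order, ASNS (asparagine synthetase) had 0.0751 CPM per kilobase, from 6 to 23 counts per library, and SLC7A11, the cystine transporter, had 0.101 from 5 to 85 counts. Both are standard ATF4 targets, and at these counts only large changes could have been seen. DDIT3 was also low, at 2.33 CPM per kilobase and 45 to 221 counts per library. The sensor genes ERN1 and EIF2AK3 stood at 0.976 and 0.699 CPM per kilobase, and the lipoprotein receptor gene VLDLR at 0.457.

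**Figure D1:**
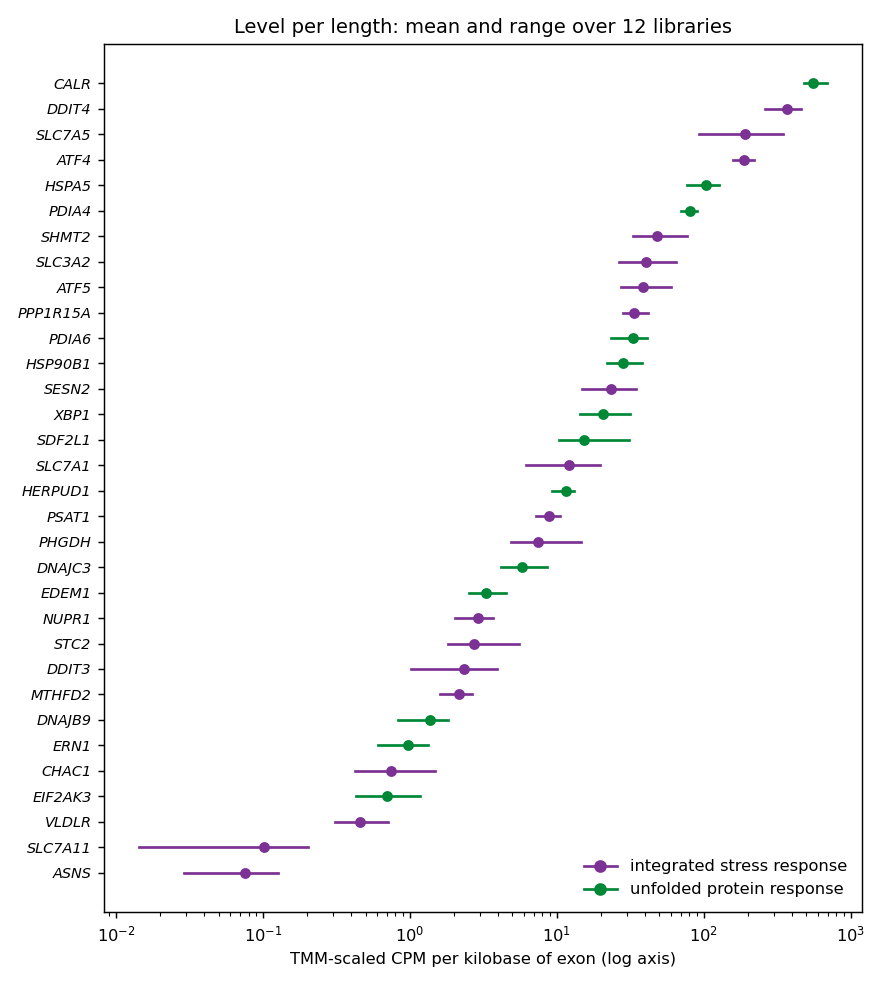
Level of each of the 32 genes as TMM-scaled CPM per kilobase of exon on a log axis, with the mean (point) and the range (line) over 12 libraries. Unfolded protein response genes run from CALR at 551.8 to EIF2AK3 at 0.699. Integrated stress response genes run from DDIT4 at 370.8 to ASNS at 0.0751.

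Libraries had 36120808 to 57324865 counts. Their titles are numbered, and each run of 4 consecutive titles (1 to 4, 5 to 8, 9 to 12) holds 1 library of each group. The labels do not say what a run is. Within every group, library 1 comes from the first run, library 2 from the second and library 3 from the third, and values below are in that order. The 4 libraries of titles 1 to 4 stood apart, with a summed level of 9 epithelial markers of 2514 to 3178 CPM, against 7918 to 9338 CPM in titles 5 to 8 and 9167 to 14010 CPM in titles 9 to 12. Libraries of the same run deviated together from their group means, with correlations of 0.1 to 0.6 (median 0.25) over 18 pairs, against a median of -0.2 over 36 pairs from different runs. Counts of calls are therefore given in a fit of the group means alone and in a fit with a term for the run of titles. A log2 fold change given without mention of the term comes from the first fit. Of the epithelial markers, the basal genes KRT5 (310 to 3330 CPM), KRT17 (406 to 4670 CPM) and ITGB4 (1550 to 5660 CPM) were high, while EPCAM and KRT19 were low (1.16 to 5.33 and 0.422 to 1.34 CPM). KRT18 stood at 214 to 721 CPM. The basal genes KRT14 and TP63 stood lower, at 11.2 to 96.3 and 5.56 to 33.9 CPM, and CDH1 at 9.89 to 68.7 CPM. The leukocyte markers PTPRC and CD3E were at most 0.0227 CPM, while CD14 reached 30.3 CPM. The fibroblast-associated genes went different ways. DCN and COL1A1 reached 472 and 238 CPM, but PDGFRB reached 27.4, COL3A1 2.63 and LUM 0.185 CPM. Of the endothelial markers PECAM1 was the highest, at 2.76 CPM or less.

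The study asked what PRL changed within 2 h and whether the I-tail mattered for it. In the fit of the group means alone, none of the 32 passed the test for PRL averaged over both receptor pairs (edgeR quasi-likelihood test, Benjamini-Hochberg over 17677 genes, 0.05), where 0.119% of all tested genes did. At an unadjusted p under 0.05 there were 3 of 32, with SLC7A1 higher and DDIT4 and DDIT3 lower, against 3.81% of all tested genes. With DESeq2 and with limma-voom the count after adjustment was 1, DDIT4 in both, and without a count filter it was 1, SLC7A1. These settings also called more of all tested genes: 91 with DESeq2, 116 with limma-voom and 124 of 33852 without a count filter. The first fit called 21. With the title-run term 3 of 32 passed, against 1.12% of all tested genes: DDIT4 and DDIT3 fell (2 of 32, 0.175% of tested genes), and SLC7A1 rose (1 of 32, 0.945%). Without the 4 libraries of titles 1 to 4 the count with that term was 0, on 8 libraries. The median log2 fold change of the 32 genes was 0.00, beside -0.02 for all tested genes, and 16 of 32 lay above 0.

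**Figure D2:**
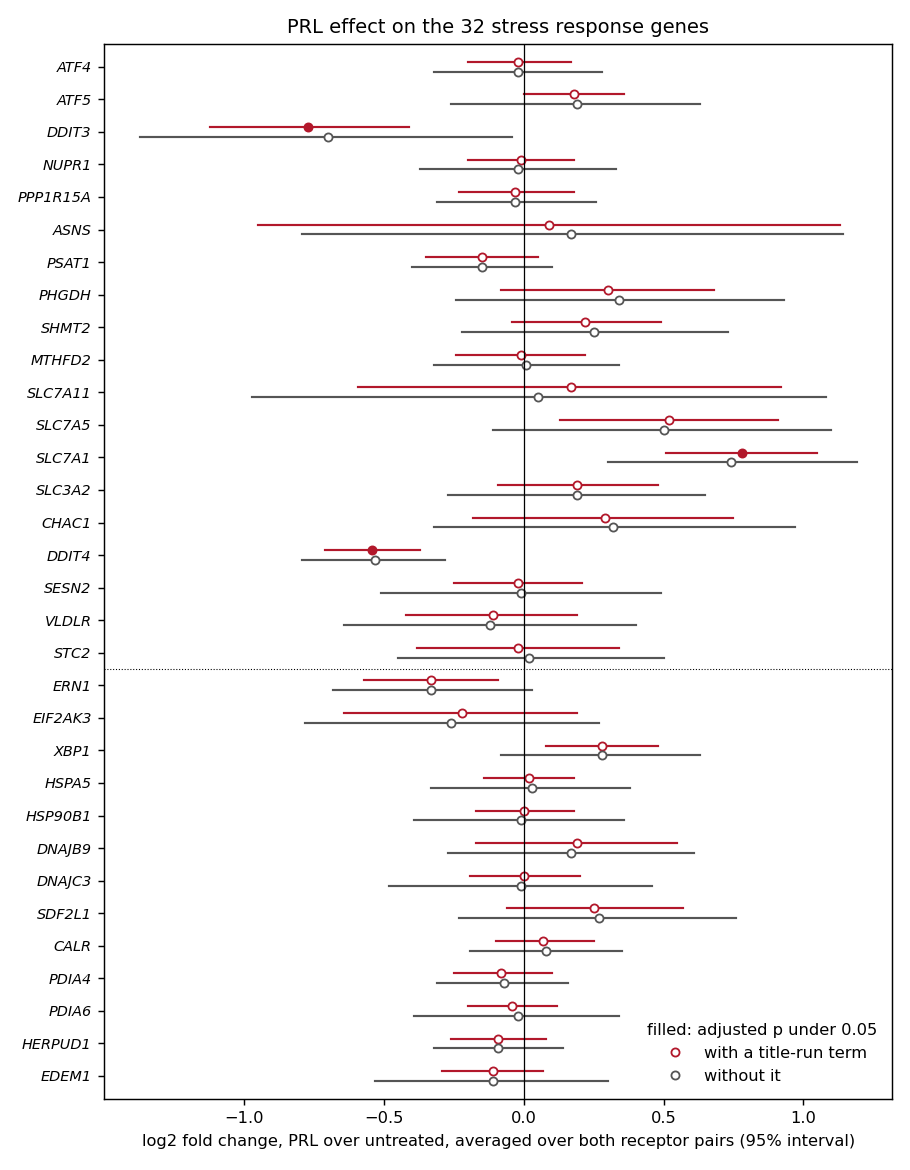
Log2 fold change of PRL over untreated, averaged over both receptor pairs, with its 95% interval for each of the 32 genes, in the fit with the title-run term (red, upper) and without it (grey, lower). Filled points passed an adjusted p of 0.05. These are DDIT4 (-0.54), DDIT3 (-0.77) and SLC7A1 (0.78), all 3 in the fit with the term, and genes below the dotted line belong to the unfolded protein response.

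DDIT4 is induced by stress through ATF4 and by glucocorticoids, and restrains mTORC1. It stood at 655, 543 and 672 CPM in deleted I-tail PRL libraries, against 917.5, 792 and 934.5 CPM in deleted I-tail untreated libraries. With the intact I-tail it stood at 669.5, 576 and 624 CPM in PRL libraries, against 906, 924 and 942.5 CPM in untreated libraries. All 6 PRL libraries thus lay below all 6 untreated libraries, a separation that 0.238% of tested genes showed and no other of the 32 genes. In 0 of 32 genes did all 6 PRL libraries lie above the untreated ones (0.441% of tested genes). Without the term the averaged log2 fold change was -0.53 ± 0.12 (SE, 95% interval -0.79 to -0.28, edgeR adjusted p = 0.192). With the term it was -0.54 ± 0.08 (-0.71 to -0.37, edgeR adjusted p = 0.00194), or 1.45-fold lower with PRL. Every within-run difference was below 0, from -0.68 to -0.44 on the log2 scale. All 6 within-run differences were below 0 in 3 of the 32 genes (DDIT4, DDIT3 and ERN1), against 6.05% of tested genes, and above 0 in 3 of the 32 (SLC7A1, SLC7A5 and ATF5), against 8.37%, so that for the 32 genes as a set both counts were near the background. The call with the term held when any of the 12 libraries was left out, and without titles 1 to 4 the adjusted p was 0.066 at -0.57. Within a group DDIT4 varied less than most genes, with an SD of 0.12 on the log2 scale, lower than in all but 2.62% of tested genes.

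SLC7A1 (CAT1) imports arginine and lysine and is an ATF4 target under amino acid shortage. It stood at 93.4, 104.5 and 144.5 CPM in deleted I-tail PRL libraries, against 49.3, 82.0 and 103 CPM in deleted I-tail untreated libraries. With the intact I-tail it stood at 98.8, 152 and 104 CPM in PRL libraries, against 47.8, 55.1 and 81.8 CPM in untreated libraries. PRL and untreated libraries did not overlap with the intact I-tail, as in 5.49% of tested genes (either direction), DDIT4 and PSAT1 among them. They overlapped with the deleted I-tail, where untreated library 3 lay above PRL library 1. Without the term the averaged log2 fold change was 0.74 ± 0.21 (95% interval 0.30 to 1.19, edgeR adjusted p = 0.475), and with limma-voom it was 0.48. With the term it was 0.78 ± 0.13 (0.51 to 1.05, edgeR adjusted p = 0.00435), or 1.72-fold higher. The within-run difference was above 0 in 6 of 6 pairs (8.37% of tested genes), from 0.34 to 1.46. This call also held without any of the 12 libraries in turn, and without titles 1 to 4 the adjusted p was 0.192 at 0.68.

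DDIT3 (CHOP) is the transcription factor through which lasting stress of the endoplasmic reticulum favours cell death. It stood at 3.91, 1.34 and 1.66 CPM in deleted I-tail PRL libraries, against 5.10, 2.85 and 3.79 CPM in deleted I-tail untreated libraries. With the intact I-tail it stood at 3.24, 1.34 and 2.36 CPM in PRL libraries, against 5.12, 2.98 and 2.86 CPM in untreated libraries. The groups overlapped in both receptor pairs, because libraries of titles 1 to 4 were the highest of their group in all 4 groups. Within runs the PRL library was lower in 6 of 6 pairs (6.05% of tested genes), by log2 values from -1.17 to -0.27. The averaged log2 fold change was -0.70 ± 0.31 without the term (95% interval -1.37 to -0.04, edgeR adjusted p = 0.98) and -0.77 ± 0.17 with it (-1.12 to -0.41, edgeR adjusted p = 0.0353), or 1.70-fold lower. This call held without deleted untreated library 1, deleted PRL library 1 or intact PRL library 3, and ended without any of the other 9 libraries (adjusted p up to 0.155) and without titles 1 to 4 (0.267). DDIT3 overlaps MARS1 and MBD6 on the opposite strand, and the sources used here do not say whether counting used the strand. These neighbours averaged 54.1 and 145 CPM, beside 3.05 CPM for DDIT3, and stood at 0.17 ± 0.18 and 0.21 ± 0.17 for the same contrast. Whether their reads entered the DDIT3 counts was not tested.

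**Figure D3:**
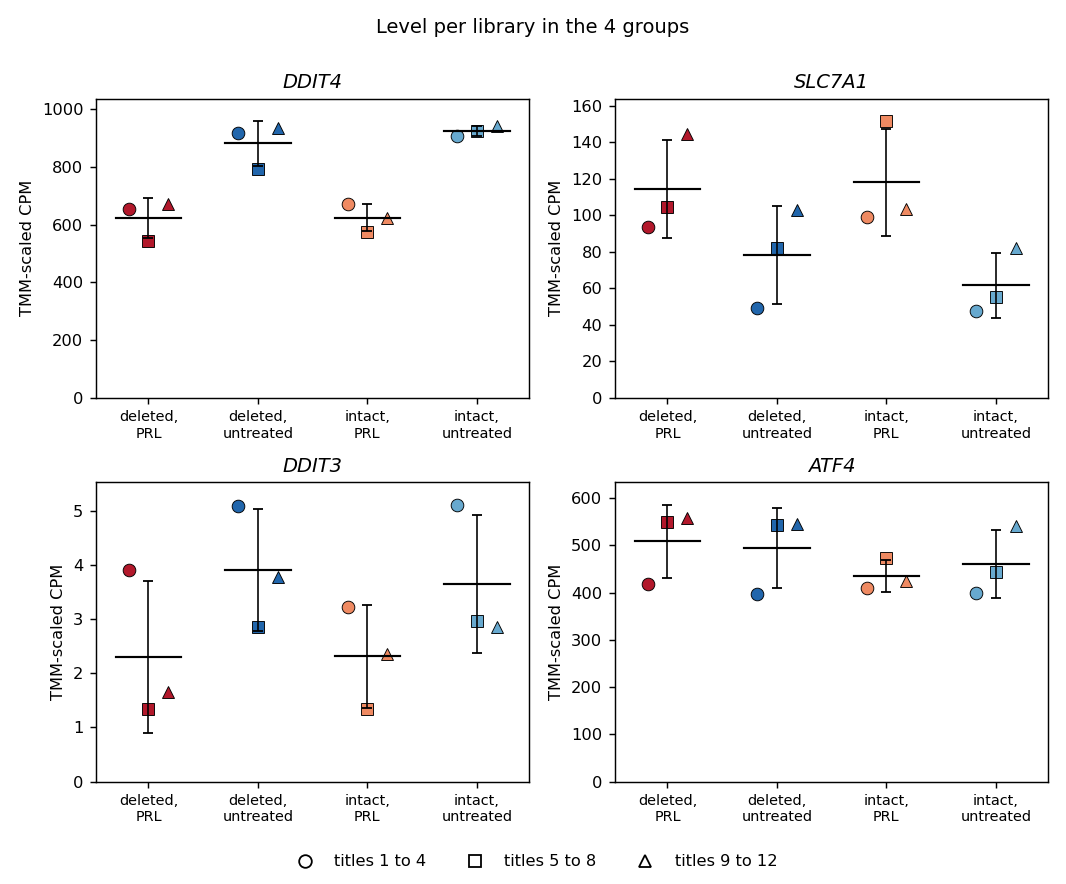
TMM-scaled CPM of DDIT4, SLC7A1, DDIT3 and ATF4 in each of the 12 libraries by group, with the group mean and SD (bars) and the run of titles (marker shape). DDIT4 lies at 672 CPM or less in every PRL library and at 792 CPM or more in every untreated library, while ATF4 overlaps between all groups.

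Some library measures moved with PRL as well. Within runs the epithelial sum was higher with PRL in 6 of 6 pairs (2820 to 14010 CPM with PRL, 2514 to 11660 CPM untreated). So was CD14 (17.5 to 30.3 CPM with PRL against 10.7 to 21 CPM untreated), as were 8.37% of tested genes, while the other leukocyte markers were at most 0.2 CPM. The fibroblast and endothelial sums were each higher in 4 of 6 pairs. The number of detected genes and the TMM factor were lower with PRL in 6 of 6 pairs. Their part in the results for DDIT4, SLC7A1 and DDIT3 was not tested. In bulk RNA, a change in how many cells express a gene and in how much RNA each holds cannot be told apart.

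ATF4 itself did not pass the test. It stood at 418.5, 549 and 558 CPM in deleted I-tail PRL libraries, against 396, 543 and 544 CPM in deleted I-tail untreated libraries, and at 409, 473 and 424 CPM in intact PRL libraries, against 399.5, 444 and 540.2 CPM in intact untreated libraries. Its averaged log2 fold change with PRL was -0.02 ± 0.14 (95% interval -0.32 to 0.28), and -0.02 ± 0.09 with the term. ATF5, a related factor that is likewise controlled at translation, stood at 0.19 ± 0.21 and 0.18 ± 0.08 with the term (edgeR adjusted p = 0.37). It was higher with PRL in 6 of 6 within-run pairs (8.37% of tested genes) by log2 values of 0.08 to 0.29. ATF5 overlaps NUP62 on the opposite strand, which averaged 102 CPM beside 113.7 CPM for ATF5. Whether NUP62 reads entered the ATF5 counts was not tested. PPP1R15A (GADD34), which directs the phosphatase that reverses eIF2 phosphorylation, stood at -0.03 ± 0.13, and the stress-induced chromatin factor NUPR1 at -0.02 ± 0.16. Of the 5 regulators, 1 (DDIT3) passed with the term.

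Of the 10 genes of amino acid supply and one-carbon metabolism, 9 had a log2 fold change above 0 for PRL (46.1% of all tested genes). Their median was 0.22, beside -0.02 for all tested genes. With upper-quartile scaling 8 lay above 0 (43.1% of all tested genes). With library size alone 7 did (29.9%), where MTHFD2 and SLC7A11 joined PSAT1 at or below 0. The median there was 0.09, beside -0.12 for all tested genes. With the term 8 did (45.7%) and 1 passed, SLC7A1 (1.12% of tested genes). With limma-voom 7 did (45.7%). Without intact PRL library 2 the count was 7 (48.5% of all tested genes) and the median 0.09. Without intact PRL library 1 the count was 7 (43.2%) and the median 0.37. SLC7A5 came closest among the others. It stood at 816, 600 and 1648 CPM in deleted I-tail PRL libraries, against 737, 439 and 1172 CPM in deleted I-tail untreated libraries, and at 797, 1387 and 1166 CPM in intact PRL libraries, against 705, 560 and 929 CPM in intact untreated libraries. Within every run PRL was the higher (8.37% of tested genes), but the groups overlapped widely, and the log2 fold change was 0.50 ± 0.28 (95% interval -0.11 to 1.1) and 0.52 ± 0.18 with the term (edgeR adjusted p = 0.23). SLC3A2, the heavy chain that carries SLC7A5 and SLC7A11 to the membrane, stood at 0.19 ± 0.21.

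The serine and one-carbon enzymes PHGDH (0.34 ± 0.27), SHMT2 (0.25 ± 0.22) and MTHFD2 (0.01 ± 0.15) did not pass, nor did PSAT1 (-0.15 ± 0.12). With TMM scaling and no term PSAT1 was the only gene of the 10 below 0. With the intact I-tail its libraries did not overlap, at 19.4, 19.7 and 15.9 CPM with PRL against 22.2, 21.6 and 23.0 CPM untreated, as was the case for 5.49% of tested genes in 1 direction or the other. With the deleted I-tail they did overlap (16.1 to 20.2 CPM with PRL, 17.5 to 20.3 CPM untreated), and DDIT4 was the only gene of the 32 without overlap there (8.26% of tested genes). CHAC1, which degrades glutathione, stood at 0.32 ± 0.30, SLC7A11 at 0.05 ± 0.47 and ASNS at 0.17 ± 0.45, with intervals reaching past 0.9 in each case. Intact PRL library 2 lay above the mean of the 12 libraries for 9 of these 10 genes and had the fewest detected genes (19073) and the lowest TMM factor (0.79) of all libraries. Without it the SLC7A1 value was 0.64 without the term and 0.67 with it.

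Of the 4 remaining integrated stress response genes, DDIT4 passed with the term and 3 did not. SESN2, which signals low leucine to mTORC1, stood at -0.01 ± 0.23. VLDLR stood at -0.12 ± 0.24, and STC2, a secreted glycoprotein, at 0.02 ± 0.22.

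The 13 unfolded protein response genes gave 0 calls for PRL in both edgeR fits, and 0 were below an unadjusted p of 0.05 without the term. Their median was -0.01 and their values ran from -0.33 to 0.28. DESeq2 and limma-voom without the term also called none, and limma-voom with the term called ERN1 and XBP1. The share of all tested genes called in that last setting is not given here. Without the term limma-voom called 116 of all tested genes, where edgeR called 21. ERN1, the sensor that splices XBP1, stood at 10.45, 9.69 and 8.38 CPM in deleted I-tail PRL libraries, against 12.9, 12 and 10.2 CPM in deleted I-tail untreated libraries, and at 11.7, 6.60 and 9.60 CPM in intact PRL libraries, against 14.5, 11.1 and 10.2 CPM in intact untreated libraries. PRL was the lower in 6 of 6 within-run pairs (6.05% of tested genes) although the groups overlapped, and the log2 fold change was -0.33 ± 0.16 (95% interval -0.68 to 0.03), and -0.33 ± 0.11 with the term (edgeR adjusted p = 0.228).

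XBP1 stood at 57.8, 68.1 and 72.2 CPM in deleted I-tail PRL libraries, against 43.55, 64.5 and 58.0 CPM in deleted I-tail untreated libraries. With the intact I-tail it stood at 58.3, 94.9 and 59.2 CPM in PRL libraries, against 45.05, 63.8 and 64.1 CPM in untreated libraries. The groups overlapped, and PRL was the higher in 5 of 6 within-run pairs. Its log2 fold change was 0.28 ± 0.16, and 0.28 ± 0.10 with the term (edgeR adjusted p = 0.221). EIF2AK3, the sensor that phosphorylates eIF2, stood at -0.26 ± 0.24.

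Most chaperones stood close to 0. HSPA5 had 483, 420.4 and 301 CPM in deleted I-tail PRL libraries, against 444, 452 and 322 CPM in deleted I-tail untreated libraries, and 495, 436.5 and 333 CPM in intact PRL libraries, against 455, 424.5 and 328 CPM in intact untreated libraries. Its log2 fold change was 0.03 ± 0.16, and with the term 0.02 ± 0.08. HSP90B1 (GRP94), the Hsp90 of the compartment, stood at -0.01 ± 0.18, CALR at 0.08 ± 0.13 (95% interval -0.19 to 0.35) and the isomerases PDIA4 and PDIA6 at -0.07 ± 0.11 and -0.02 ± 0.17. The HSPA5 co-chaperones DNAJB9, DNAJC3 and SDF2L1 stood at 0.17 ± 0.20, -0.01 ± 0.22 and 0.27 ± 0.23. HERPUD1 and EDEM1, which serve the clearance of misfolded proteins, stood at -0.09 ± 0.11 and -0.11 ± 0.19.

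The I-tail question was addressed by the PRL effects of each receptor pair, by their difference and by the deletion itself. With the deleted I-tail 0 of 32 genes passed for PRL, against 0.017% of tested genes, and with the intact I-tail 0 of 32 passed, also against 0.017%. At an unadjusted p under 0.05 there was 1 of 32 with the deleted I-tail (DDIT4; 1.79% of tested genes) and 2 of 32 with the intact I-tail (DDIT4 and SLC7A1; 2.55%). With the title-run term there were 0 of 32 with the deleted I-tail (0.322% of tested genes) and 2 of 32 with the intact I-tail (0.351%), 1 of them lower (0.0226%) and 1 higher (0.328%).

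DDIT4 stood at -0.50 ± 0.11 with the deleted I-tail (edgeR adjusted p = 0.103, with the term) and fell by 0.57 ± 0.11 on the log2 scale with the intact I-tail (edgeR adjusted p = 0.0403). SLC7A1 stood at 0.58 ± 0.18 with the deleted I-tail (edgeR adjusted p = 0.423) and rose by 0.98 ± 0.18 with the intact I-tail (edgeR adjusted p = 0.0253). Both calls with the intact I-tail ended without any of its own untreated or PRL libraries, except that of SLC7A1 without intact PRL library 3, and both ended without titles 1 to 4 (adjusted p = 0.431 for DDIT4 and 0.584 for SLC7A1). That of DDIT4 also ended without any deleted I-tail library other than untreated library 1, while that of SLC7A1 held without each of them.

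The difference between the PRL effects, deleted minus intact, passed for 0 of 32 genes and for 0 of all tested genes, at an adjusted p of 1 for every one of the 32 in edgeR, and for 0 of 32 at an unadjusted p under 0.05 (0.718% of tested genes). Without the term it was 0.07 ± 0.23 for DDIT4 (95% interval -0.43 to 0.57), -0.39 ± 0.41 for SLC7A1 (-1.28 to 0.50) and -0.11 ± 0.61 for DDIT3 (-1.43 to 1.22). With the term 0 of 32 and 0 of all tested genes passed, and the difference was 0.07 ± 0.16 for DDIT4 (-0.27 to 0.41), -0.39 ± 0.25 for SLC7A1 (-0.93 to 0.15) and -0.18 ± 0.33 for DDIT3 (-0.88 to 0.53). For DDIT4 the interval with the term did not reach the size of its averaged PRL effect, -0.54, while for SLC7A1 and DDIT3 the interval reached beyond theirs, 0.78 and -0.77. Without the term the DDIT4 interval, up to 0.57, did reach beyond the size of its averaged effect, -0.53.

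The deletion averaged over both treatments passed for 0 of 32 genes, against 0.00566% of tested genes, and for 0 of 32 at an unadjusted p under 0.05 (2.28% of tested genes). With the term it passed for 0 of 32, against 0.0622%. DESeq2 and limma-voom also called 0 with and without the term. With the term edgeR without a count filter called SDF2L1, and the share of all tested genes in that setting is not given here. The lowest adjusted p with the term was that of SESN2 (-0.30 ± 0.11, edgeR adjusted p = 0.322), followed by SDF2L1 (-0.36 ± 0.15, 0.334). DDIT4 averaged 623 ± 70.2 CPM in deleted I-tail PRL cells and 623 ± 46.8 CPM in intact PRL cells, and 881 ± 77.9 CPM in deleted I-tail untreated cells and 924 ± 18.1 CPM in intact untreated cells (SD, n = 3 each), a log2 deletion effect of -0.03 ± 0.12. PDIA6 was the 1 gene of the 32 higher with the deleted I-tail in 6 of 6 within-run pairs, against 4.04% of tested genes, and did not pass at 0.11 ± 0.17, or 0.11 ± 0.07 with the term (edgeR adjusted p = 0.537). In deletion contrasts within PRL and within untreated cells, 0 of 32 genes passed with or without the term, against 0.00566% of tested genes in each.

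Levels also varied by the run of titles, in the 32 genes as in tested genes at large. In 10 of 32 genes the 4 libraries of titles 1 to 4 lay entirely above (4 genes) or entirely below (6 genes) the other 8, as they did in 12.8% and 13.6% of all tested genes. For the 32 genes as a set both counts were near the background, and how they divided between the responses was not tested. The 6 below were all of the integrated stress response: ATF4 (396 to 419 CPM in titles 1 to 4, 424 to 558 CPM in the others), ATF5, NUPR1, PHGDH, SHMT2 and SESN2 (51.3 to 56.2 and 72.6 to 119.8 CPM). Of the 4 above, 3 were of the unfolded protein response, HSP90B1 (156 to 179 and 103 to 131 CPM), DNAJC3 (42.1 to 48.2 and 23.3 to 30.6 CPM) and EDEM1 (27.3 to 30.6 and 17.1 to 21.6 CPM), and the other was SLC7A11. HSPA5 and PDIA6 were lowest in titles 9 to 12, HSPA5 at 301 to 333 CPM against 420.4 to 495 CPM in the others, as 0.837% of tested genes were. These are descriptions of 12 libraries, and what a run stands for was not given.

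**Figure D4:**
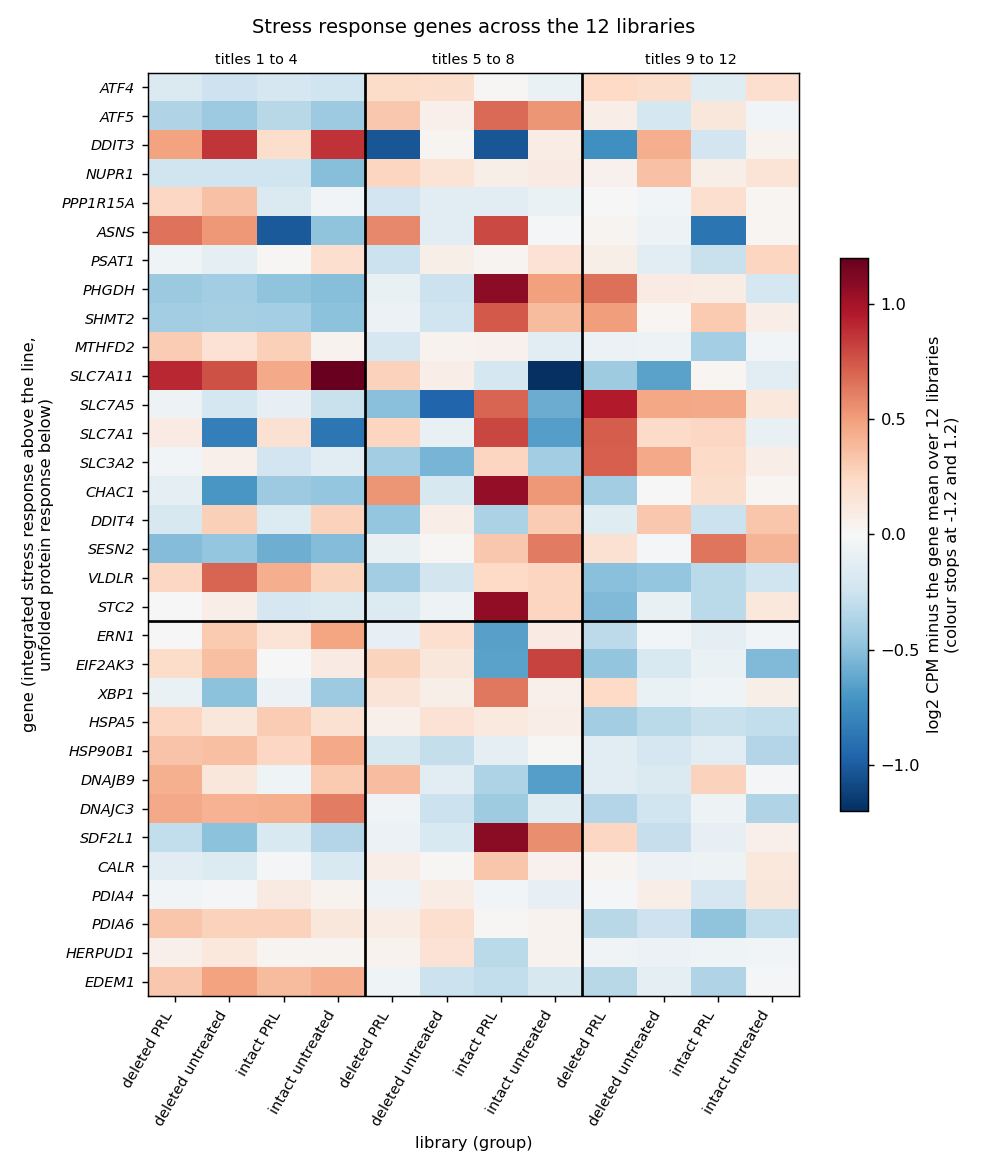
Log2 CPM of each gene minus its mean over the 12 libraries, with libraries ordered by the run of titles and, within a run, as deleted PRL, deleted untreated, intact PRL and intact untreated. In titles 1 to 4 all libraries lie below the other 8 for ATF4 and above them for HSP90B1, DNAJC3 and EDEM1, while DDIT4 is lower in the PRL library of each pair in every block.

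Other genes of the same pathways were counted as well. For averaged PRL, 0.119% of all tested genes passed without the term and 1.12% with it. Among 18 genes listed under the eIF2 machinery, 0 passed for PRL with or without the term, with a median of -0.01. The list held the other eIF2 kinases and the subunits of eIF2 and its exchange factor eIF2B. It also held EIF2A, PPP1R15B, IMPACT, GCN1, CEBPG, DELE1 and OMA1. The lowest p belonged to EIF2B1, a subunit of eIF2B (-0.19 ± 0.12), and GCN1, a ribosome-bound activator of the kinase GCN2 (0.20 ± 0.18). Among 18 cytosolic aminoacyl-tRNA synthetases, many of them ATF4 targets, 0 passed and the median was 0.05, with WARS1 at 0.17 ± 0.11 and VARS1 at 0.40 ± 0.27. Among 32 other unfolded protein response genes tested 0 passed and the median was 0.02, with the vesicle coat gene SEC24D at -0.21 ± 0.11 and BLOC1S1, an RNA that ERN1 cuts, at 0.27 ± 0.19. Among 14 cytosolic heat shock genes 0 passed and the median was -0.03, with HSPA1B at -0.24 ± 0.14 and HSPB1 at 0.27 ± 0.23.

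Among 20 other ATF4 targets tested, 0 passed without the term (0.119% of all tested genes) and 1, TRIB3, with it (1.12%). TRIB3, a pseudokinase that binds AKT and feeds back on ATF4, stood at 74.8, 107 and 128 CPM in deleted I-tail PRL libraries, against 38.1, 51.8 and 57.9 CPM in deleted I-tail untreated libraries, and at 72.9, 234 and 115 CPM in intact PRL libraries, against 39.7, 93.7 and 65.3 CPM in intact untreated libraries. PRL was the higher in every run (8.37% of tested genes). The groups overlapped with the intact I-tail but not with the deleted I-tail, where 8.26% of tested genes did not overlap. The log2 fold change was 1.07 ± 0.28 (edgeR adjusted p = 0.387), and 1.05 ± 0.15 with the term (0.00115). ATF3, a stress-induced factor of the same family as ATF4, stood at 0.60 ± 0.49 and at 0.70 ± 0.16 with the term (edgeR adjusted p = 0.057). SLC1A5, the glutamine transporter, stood at 0.38 ± 0.15 and at 0.36 ± 0.10 with the term (edgeR adjusted p = 0.12). The median of the 20 was 0.00.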

How the data were processed

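PolyA RNA of 12 MCF10AT libraries was sequenced. The authors deposited whole-number counts for each Ensembl gene and library. The submitters' processing notes name GRCh38, FastQC, STAR 2.7.9a, Subread and its featureCounts. Annotation release, strand setting and filters are not stated in the sources used here. Of 62703 entries, 1 held no values. Depth was 36120808 to 57324865 counts per library.

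Groups came from the genotype and treatment labels. Libraries were numbered within a group in accession order. The number equals the run of titles, but the labels do not say that a run pairs libraries. filterByExpr kept 17677 genes. After TMM scaling, edgeR 4.0.16 (R 4.3.3) fitted 1 mean per group with robust quasi-likelihood dispersions over all 12 libraries. The quasi-likelihood F test was applied to 7 contrasts, with Benjamini-Hochberg adjustment over the 17677 genes and a threshold of 0.05. The SE of a log2 fold change is its size over the square root of F. The title-run term is an additive factor with 1 level for each run of 4 consecutive titles. Log CPM use a prior count of 2. Exon lengths came from GENCODE 29.

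The 32 genes and the pathway lists were chosen with earlier results of these data known. Named were all 32, TRIB3, ATF3 and, per pathway list, every called gene and the 2 with the smallest p for the averaged PRL effect.

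Other settings were scaling by RLE, upper quartile or library size, no count filter or a stricter filter (1 CPM and 10 counts in at least 3 libraries), voom of limma 3.58.1 with quality weights, DESeq2 1.42.0, fits of the compared groups only, the title-run term, and leave-outs of each library. Settings combined with the term, and leaving out titles 1 to 4, were chosen after seeing the data. The edgeR test of the averaged PRL effect was checked on simulated data, with and without the term. The simulated data for the fit with the term held a run effect and a reduced spread. Those for the fit without the term held no run effect, so that fit was not checked in its presence. The other contrasts, DESeq2 and limma-voom were not checked in this way. Reads, isoforms and XBP1 splicing were not analysed here.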

Additional observations from a re-analysis of the deposited data

How the results depend on the processing

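The titles carry no replicate numbers. The title-run term is the fit that pairs libraries, by the run of their titles, and same-run libraries deviated together (correlations of 0.1 to 0.6), but the labels do not say what a run is. The count of genes passing for averaged PRL was 0 without the title-run term. It was 1 without a count filter, 1 with DESeq2, 1 with limma-voom and 3 with the term. With the term it was 5 with limma-voom, and 0 without the libraries of titles 1 to 4. For PRL with the intact I-tail it was 0, and 1 without a count filter and 2 with the term. With the term the intact I-tail count was 1 with RLE scaling, 1 with library size alone, 0 without titles 1 to 4, and 0 to 2 over the 12 leave-outs. With the term the deleted I-tail count of 0 became 1 with library size alone, 2 without a count filter, 1 with DESeq2 and 3 with limma-voom. For the averaged deletion with the term, 0 became 1 without a count filter. Calls over all tested genes changed with the setting too. For averaged PRL they numbered 21, and 124 without a count filter, 91 with DESeq2, 116 with limma-voom and 198 with the term. For other settings combined with the term they are not given here. The median PRL effect of the 32 genes, 0.00, was -0.10 with library size alone, which moved the median of all tested genes to -0.12, and -0.04 to 0.08 over the leave-outs. The causes of these shifts were not tested.

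With the term the PRL call of DDIT4 held in 19 of 20 alternatives (-0.64 to -0.48), that of SLC7A1 in 19 of 20 (0.66 to 0.92) and that of DDIT3 in 10 of 20 (-0.91 to -0.67). No called value changed sign. Counts of under 24 per library limit ASNS.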
